A study of Homo sapiens with 6 samples.

Results

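The carbonic anhydrases described here are 7 genes, CA2, CA5B, CA8, CA9, CA11, CA12 and CA13, found among the 60649 gene rows of the count table by matching each identifier, without its version, to its gene symbol. They were measured by RNA-seq in OVCAR5, an established human ovarian cancer line. In 3 libraries the cells carried a lentiviral METTL3 construct (METTL3-overexpressing), and in 3 they carried the empty PCDH lentivirus (vector control). METTL3 is the catalytic subunit of the enzyme complex that writes m6A, a methyl mark on adenosine in mRNA. All cells were transduced, selected with puromycin and grown in RPMI medium with serum, and no library is labelled as exposed to cisplatin. Each group is a stable line, and nothing says that its libraries come from separate transductions. One label text calls the control cells parental. The files hold transcript counts only, with no measurement of m6A.

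Carbonic anhydrases are zinc enzymes that interconvert carbon dioxide and bicarbonate and so help a cell to set its pH. CA2 and CA13 are cytosolic, CA5B works in mitochondria, and CA9 and CA12 sit in the plasma membrane with the catalytic domain facing outward. CA9 is a classic target of the hypoxia-inducible factor HIF and is used as a tumor marker of hypoxia. CA8 and CA11 are related proteins without carbonic anhydrase activity. CA8 is an intracellular protein that binds the inositol trisphosphate receptor, and CA11 is a secreted family member.

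Total counts ranged from 96633925 to 125463386 per library. METTL3 itself was at 152 to 175 CPM (counts scaled to library size with TMM factors) in METTL3-overexpressing libraries and at 68.6 to 80.6 CPM in vector control libraries. This is a log2 fold change of 1.16, with an adjusted p of 0.072 from edgeR's quasi-likelihood test over all genes, and it was 1.28 with replicates 2 and 3 of each group (adjusted p = 1.59e-08 from edgeR's test). Replicate 1 of both groups stood apart from the other 4 libraries across many genes, so the comparison is also given for replicates 2 and 3 of each group for each member. That choice rests on these same data, and the p-values of the smaller fit are not corrected for it. The summed level of 6 epithelial markers, among them EPCAM and KRT8, was from 7172 to 8176 CPM with METTL3 and from 5820 to 9075 CPM with the vector. In replicates 2 and 3 of each group all 6 were called higher with METTL3, as were 6.66% of all genes. On all 6 libraries 0 of them were called in edgeR's test. Within replicate 1, EPCAM, KRT8, KRT18 and KRT19 were lower with METTL3, by -0.14, -0.23, -0.22 and -0.09 on the log2 scale. CDH1 and CLDN4 were higher there, by 1.13 and 0.17. Red cell markers were included because CA1 and CA2 are the enzymes of erythrocytes. AHSP was at 0 in every library, and the summed level of the red cell markers stayed between 0.0738 and 0.154 CPM. The 4 leukocyte markers together reached at most 0.168 CPM. Fibroblast markers, nearly all COL1A1, summed to between 16.6 and 18.2 CPM with METTL3 and between 8.23 and 17.8 CPM with the vector. The 3 endothelial markers summed to between 7.99 and 22.1 CPM with METTL3 and between 5.15 and 8.17 CPM with the vector. Most of that sum was PECAM1, which was highest in METTL3-overexpressing replicate 1, at 21.4 CPM. The part of these marker levels in the results was not tested.

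All 7 carbonic anhydrases were detected in every library, with counts from 40 to 5626, and all passed the filter on low counts. Levels between genes were compared per length, as FPKM over the union of a gene's exons. CA2 had the highest level, at 15.9 ± 2.84 FPKM in vector control libraries (SD, n = 3), followed by CA12 at 6.39 ± 1.12 FPKM (SD, n = 3). CA8, at 4.36 ± 0.207 FPKM, and CA13, at 4.28 ± 0.133 FPKM (SD, n = 3 each), had overlapping values and exchanged places when the longest transcript was used as the length. CA11 followed at 2.89 ± 0.581 FPKM (SD, n = 3). CA5B, at 0.345 ± 0.0431 FPKM, and CA9, at 0.299 ± 0.0773 FPKM (SD, n = 3 each), were the lowest and overlapped each other. The other neighbors in this order did not overlap among the vector control libraries. In vector control libraries a cytosolic and a membrane enzyme thus led the order, and the mitochondrial enzyme and the hypoxia marker closed it. With METTL3, CA13 had a higher mean, 5.14 ± 1.33 FPKM, than CA12, 4.45 ± 0.195 FPKM (SD, n = 3 each), and their values overlapped.

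**Figure D1:**
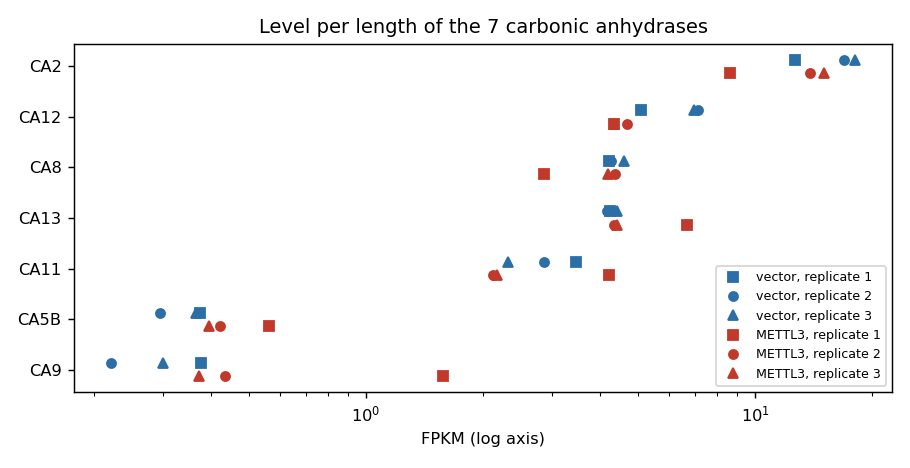
Level of each carbonic anhydrase in FPKM on a log axis, with 1 point per library, blue for vector control and red for METTL3-overexpressing, and squares, circles and triangles for replicates 1, 2 and 3. CA2 lies highest and CA5B and CA9 lowest, and CA9 in METTL3-overexpressing replicate 1 lies apart from the other CA9 points, at 1.58 FPKM.

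The comparison of METTL3-overexpressing with vector control cells asks which of these transcripts changed with METTL3. On all 6 libraries, 0 of the 7 members had an adjusted p-value under 0.05 in edgeR's quasi-likelihood test, and 0% of the 22038 genes tested did. DESeq2 on the same libraries also called 0 members, where 1.27% of all genes were called. Before adjustment 2 members had p-values under 0.05, beside 8.3% of all genes. These were CA9, higher with METTL3 as were 4.4% of all genes, and CA12, lower as were 3.91%. The groups' CPM values did not overlap for 2 members, beside 17.4% of all genes. CA5B lay above the vector in all METTL3-overexpressing libraries, as did 8.47% of genes, and CA12 lay below, as did 8.93%. The fitted change was higher with METTL3 for CA5B, CA9 and CA13 and lower for CA2, CA8, CA11 and CA12, and the members' median was -0.03 on the log2 scale beside -0.02 over all genes tested. When replicates 2 and 3 of each group were fitted alone, edgeR called 2 members, CA12 and CA2, both lower, where 15.2% of all genes were called, 6.66% as higher and 8.59% as lower.

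**Figure D2:**
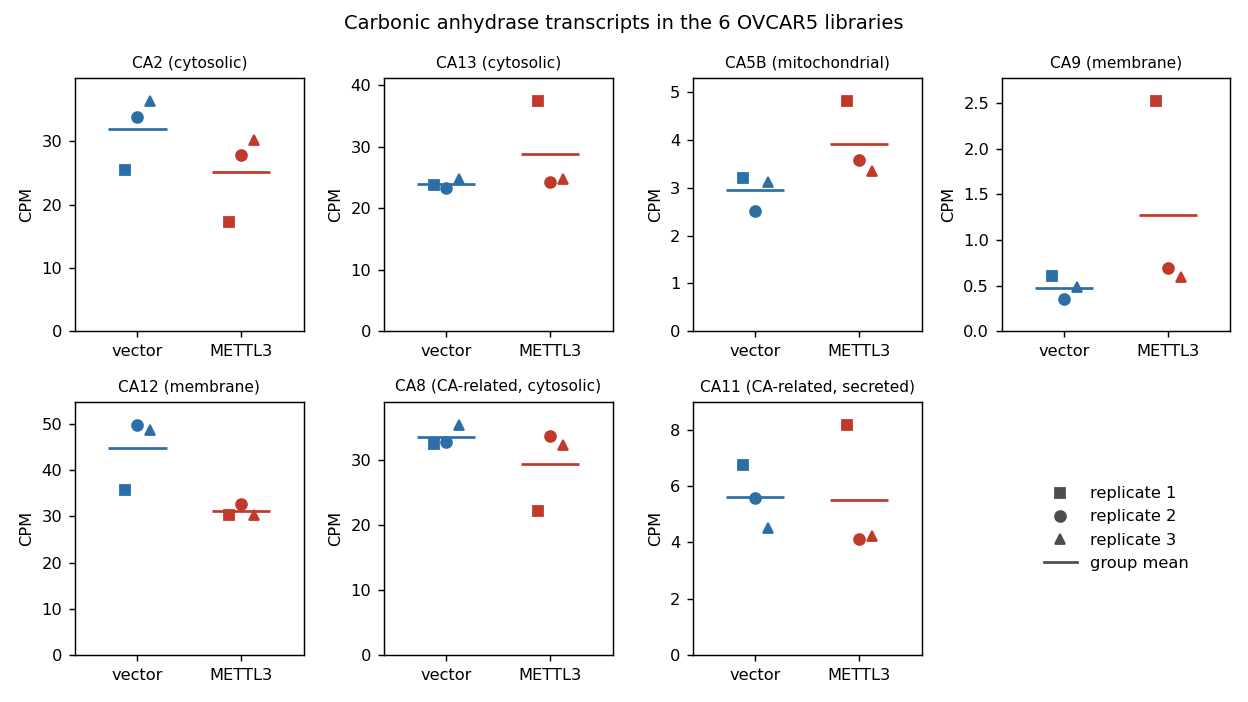
CPM of each carbonic anhydrase in the 6 libraries, each panel starting at 0, with vector control in blue, METTL3-overexpressing in red, squares, circles and triangles for replicates 1, 2 and 3, and a line at each group mean. The red CA12 points lie between 30.3 and 32.7 CPM, below all blue points, whereas CA2, CA8, CA9, CA11 and CA13 show overlapping groups.

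Among the membrane enzymes, CA12 transcripts were lower with METTL3 in every library. CA12, which hydrates carbon dioxide outside the cell, measured 30.3, 32.7 and 30.4 CPM in METTL3-overexpressing replicates 1, 2 and 3, against vector control values of 35.7, 49.8 and 48.8 CPM. The METTL3-overexpressing libraries were close to each other and all lay below the vector control libraries, of which replicate 1 was the nearest. The means were 31.1 ± 1.36 and 44.8 ± 7.86 CPM (SD, n = 3 each). The log2 fold change of CA12 was -0.52 (95% interval -0.86 to -0.19, adjusted p = 0.441 from edgeR's test), which did not pass over all genes. It was -0.64 with replicates 2 and 3 of each group (95% interval -0.78 to -0.51, adjusted p = 6.53e-06 from edgeR's test), a level 0.64 times that of the vector. A single library decided the call in a larger set, since without vector control replicate 1 the log2 fold change was -0.66 (adjusted p = 0.0205 from edgeR's test), where 0.946% of all genes were called lower. Within the numbered pairs the log2 difference was -0.24, -0.61 and -0.68 for replicates 1, 2 and 3.

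CA9, the other membrane enzyme, was low apart from a single library. Its METTL3-overexpressing replicates 1, 2 and 3 measured 2.52, 0.694 and 0.595 CPM, from 284, 86 and 60 counts. The vector control replicates measured 0.601, 0.354 and 0.480 CPM, from 57, 40 and 53 counts. METTL3-overexpressing replicate 1 lay far above the other 5 libraries, and METTL3-overexpressing replicate 3 lay just below vector control replicate 1, so the groups overlapped. On all 6 libraries CA9 had a log2 fold change of 1.41 (95% interval 0.14 to 2.68, adjusted p = 0.569 from edgeR's test). Without METTL3-overexpressing replicate 1 it was 0.46 (adjusted p = 0.846 from edgeR's test). With replicates 2 and 3 of each group it was 0.63 (95% interval -0.01 to 1.27, adjusted p = 0.195 from edgeR's test). When genes of every count were kept in the fit, CA9 had an adjusted p of 0.00171 from edgeR's test at nearly the same log2 fold change, 1.43, and 0.782% of all genes were called higher. In GENCODE 44, 571 bases or 35.7% of the exonic bases of CA9 lie opposite exons of ARHGEF39, and how the counting treated strand is not given in the sources used here. ARHGEF39 was at its lowest, 33.8 CPM, in METTL3-overexpressing replicate 1, where CA9 was highest, and its other libraries ranged from 41.5 to 50.1 CPM.

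The promoter windows of the membrane enzymes are shown because both genes are known to respond to hypoxia and their fitted changes had opposite signs. The sequences are the 250 bases before the RefSeq start of each gene on its own strand (GRCh38.p14), with capitals for the core letters of the HIF element, ACGTG or GCGTG, on either strand. For CA9 the window is chr9:35673678-35673927 on the forward strand, and for CA12 it is chr15:63381847-63382096 on the reverse strand.
CA9: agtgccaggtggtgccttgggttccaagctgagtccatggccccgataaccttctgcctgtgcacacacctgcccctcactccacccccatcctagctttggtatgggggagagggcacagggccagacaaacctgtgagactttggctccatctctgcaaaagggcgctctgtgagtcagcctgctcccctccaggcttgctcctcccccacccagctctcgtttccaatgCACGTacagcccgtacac
CA12: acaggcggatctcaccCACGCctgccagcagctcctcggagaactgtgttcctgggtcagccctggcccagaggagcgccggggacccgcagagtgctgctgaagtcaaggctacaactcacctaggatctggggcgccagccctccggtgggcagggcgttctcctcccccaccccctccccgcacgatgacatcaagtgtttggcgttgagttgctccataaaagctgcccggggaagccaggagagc
CA9 held 1 match, whose first letter lay 18 bases before the start, and CA12 held 1 match, 234 bases before the start. The window of the mitochondrial CA5B, which is not shown, held 6 matches, from 42 to 199 bases before its start. Of 35116 RefSeq promoter windows of this length, 43.2% held at least 1 of these matches, and 18.5% held ACGTG on either strand, as CA9 did. A match of these letters is a description of the window and not a measured site.

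For CA9 and CA12, 18 other hypoxia targets were listed as background. All 18 were tested, 13 were higher and 5 lower with METTL3, and 0 were called on all 6 libraries in edgeR's test. Of the 18, 3 had an unadjusted p-value under 0.05 in edgeR's test, beside 8.3% of all genes. DESeq2 called 1 of the 18, beside 1.27% of all genes. The median log2 fold change of the list was 0.10, beside -0.02 over all genes tested. SLC2A1, the glucose transporter GLUT1, measured 477, 427 and 419 CPM with METTL3 and from 255 to 279 CPM with the vector. Its groups did not overlap, yet its log2 fold change of 0.73 did not pass over all genes (adjusted p = 0.289 from edgeR's test). Of the 18, 4 lay above the vector without overlap and 0 below, beside 8.47% and 8.93% of all genes. VEGFA, the angiogenic growth factor, measured 140.0, 88.5 and 89.1 CPM with METTL3 and from 67.2 to 75.2 CPM with the vector (log2 fold change 0.58, adjusted p = 0.517 from edgeR's test). EGLN3, the HIF prolyl hydroxylase PHD3, measured 95.7, 47.6 and 47.2 CPM with METTL3 and 55.4, 30.3 and 33.3 CPM with the vector. EGLN3 was highest in replicate 1 of each group. METTL3-overexpressing replicate 1 was the highest library for EGLN3 and CA9, and also for SLC2A1, VEGFA, NDRG1, CA5B, CA11 and CA13, but not for ADM. NDRG1 and ADM, at log2 fold changes of 0.00 and -0.02, showed overlapping groups. With replicates 2 and 3 of each group, 4 listed genes were called higher, SLC2A1, VEGFA and EGLN3 among them, and 2 lower, NDRG1 among them, 33.3% of the list beside 15.2% of all genes.

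Among the cytosolic enzymes, CA2 was lower with METTL3 in each numbered pair but with overlapping groups. CA2, the fast and widespread cytosolic isozyme, measured 17.3, 27.8 and 30.1 CPM in METTL3-overexpressing replicates 1, 2 and 3, against vector control values of 25.4, 33.9 and 36.3 CPM. Replicate 1 was the lowest library in both groups, and vector control replicate 1 lay below METTL3-overexpressing replicates 2 and 3. The log2 difference within numbered pairs was -0.56, -0.29 and -0.27. On all 6 libraries the log2 fold change was -0.35 (95% interval -0.86 to 0.17, adjusted p = 0.665 from edgeR's test). With the replicate number as a block the interval ran from -0.65 to -0.09, again without passing over all genes (adjusted p = 0.345 from edgeR's test). With replicates 2 and 3 of each group the level was 0.82 times that of the vector (95% interval 0.75 to 0.91, adjusted p = 0.011 from edgeR's test). The study chose CA2 as a candidate on these samples together with METTL3 knockdown samples, and also measured it by RT-qPCR. The direction of CA2 in these libraries is therefore not independent evidence. The log2 fold change of CA2 was -0.12 without METTL3-overexpressing replicate 1 and -0.48 without vector control replicate 1.

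CA13, the other cytosolic enzyme, measured 37.4, 24.3 and 24.7 CPM in METTL3-overexpressing replicates 1, 2 and 3, against vector control values of 23.7, 23.3 and 24.8 CPM. METTL3-overexpressing replicate 1 lay above the other 5 libraries, which were close together. The log2 fold change of 0.27 (95% interval -0.14 to 0.67, adjusted p = 0.673 from edgeR's test) became 0.05 without that library. With replicates 2 and 3 of each group it was 0.02, with an interval from -0.12 to 0.17. CA13 and CA2 lie in a cluster on the long arm of chromosome 8, CA13 from 85220587 to 85284073 and CA2 from 85463968 to 85481493 (GRCh38, both on the forward strand), with CA1 and CA3 between them. Within replicate 1 these neighbors differed in opposite directions, by -0.56 for CA2 and 0.66 for CA13 on the log2 scale, from 1 library per group and with no test. CA1, the red cell isozyme, had at most 10 counts in any library. CA3, the muscle isozyme, ranged from 0.268 to 0.541 CPM with METTL3 and from 0.118 to 0.559 CPM with the vector.

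The mitochondrial CA5B was the only member whose METTL3-overexpressing libraries all lay above the vector control libraries. CA5B measured 4.80, 3.58 and 3.36 CPM in METTL3-overexpressing replicates 1, 2 and 3, against vector control values of 3.19, 2.52 and 3.11 CPM. The gap between the groups, from 3.19 to 3.36 CPM, was narrow. The log2 fold change of 0.41 did not pass (95% interval -0.06 to 0.88, adjusted p = 0.627 from edgeR's test), nor did the value of 0.30 with replicates 2 and 3 of each group (adjusted p = 0.207 from edgeR's test). CA5B has a pseudogene copy beside it on the X chromosome, CA5BP1, and its counts are uncertain to the extent that reads match both. CA5BP1 itself measured 3.92, 4.31 and 4.21 CPM with METTL3 and 3.94, 3.31 and 3.86 CPM with the vector (log2 fold change 0.16, adjusted p = 0.778 from edgeR's test). A further 22% of the exonic bases of CA5B lie opposite INE2, which was listed at 0 counts in all 6 libraries.

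The noncatalytic members CA8 and CA11 had overlapping groups. CA8 measured 22.1, 33.7 and 32.3 CPM in METTL3-overexpressing replicates 1, 2 and 3, against vector control values of 32.5, 32.8 and 35.4 CPM. Only METTL3-overexpressing replicate 1 departed from the rest, and without it the log2 fold change of -0.19 became -0.0045 (adjusted p = 0.996 from edgeR's test). The interval for CA8 ran from -0.19 to 0.09 on the log2 scale with replicates 2 and 3 of each group. CA11 measured 8.17, 4.12 and 4.23 CPM in METTL3-overexpressing replicates 1, 2 and 3, against vector control values of 6.76, 5.59 and 4.50 CPM. Its highest library in each group was replicate 1. The log2 fold change of CA11 was -0.03 on all 6 libraries (95% interval -0.70 to 0.65, adjusted p = 0.987 from edgeR's test), and it took either sign between settings. It was -0.27 with replicates 2 and 3 of each group (adjusted p = 0.18 from edgeR's test).

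**Figure D3:**
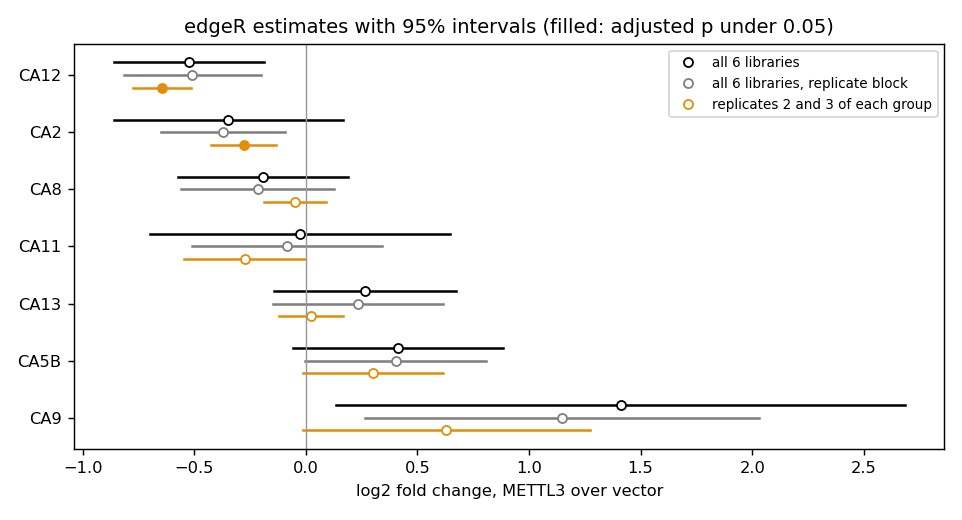
Log2 fold change of each carbonic anhydrase, METTL3-overexpressing over vector control, with 95% intervals from edgeR for all 6 libraries (black), the same with the replicate number as a block (grey) and replicates 2 and 3 of each group (orange). Filled points have an adjusted p-value under 0.05, which only CA12 and CA2 reached, in replicates 2 and 3. CA9 has the widest interval, from 0.14 to 2.68 on all 6 libraries.

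The members also varied between replicates. Replicate 1 was compared with replicates 2 and 3 because earlier results of these data showed it apart. The p-values of this comparison are therefore not independent evidence that replicate 1 differs. With the group in the model, replicate 1 differed from replicates 2 and 3 at an adjusted p-value under 0.05 for 3 of the 7 members, where 9.06% of all genes tested were called, 4.25% as higher and 4.81% as lower. CA2 was lower in replicate 1, with a log2 difference of -0.60 (95% interval -0.85 to -0.35, adjusted p = 0.0196 from edgeR's test). CA11 was higher by 0.70 (95% interval 0.32 to 1.09, adjusted p = 0.0414 from edgeR's test). CA9 was higher by 1.35 (95% interval 0.58 to 2.13, adjusted p = 0.0481 from edgeR's test). With 1 of the other 4 libraries left out, the log2 difference ranged from -0.67 to -0.59 for CA2, from 0.62 to 0.78 for CA11 and from 1.141 to 1.503 for CA9. In these smaller fits 0 members passed without METTL3-overexpressing replicate 2, without METTL3-overexpressing replicate 3 or without vector control replicate 3, and 2 passed without vector control replicate 2, while the calls over all genes fell to between 233 and 776. Replicate 1 lay on the same side of its own replicates 2 and 3 in both groups for every member except CA13. For CA2 the distance was -0.74 with METTL3 and -0.46 with the vector on the log2 scale. CA13 lay at 0.61 and -0.02, CA8 at -0.58 and -0.07, and CA12 at -0.06 and -0.47. Whether the groups differed in this distance was not tested.

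**Figure D4:**
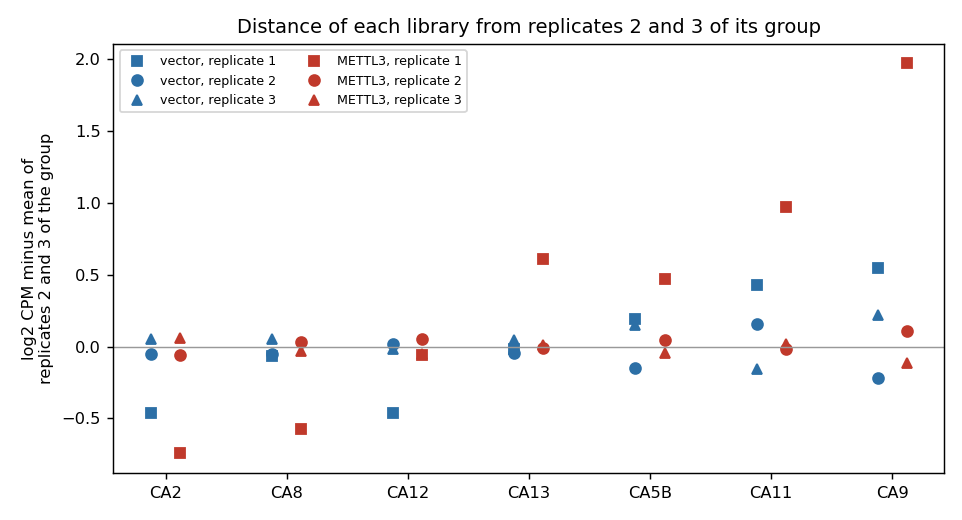
Distance of each library, in log2 CPM, from the mean of replicates 2 and 3 of its own group, with blue for vector control, red for METTL3-overexpressing and squares for replicate 1. Replicate 1 stands apart in both groups for CA2, CA11 and CA9, mainly with METTL3 for CA13 and CA8, and with the vector for CA12, and CA9 in METTL3-overexpressing replicate 1 is farthest out, at 1.97.

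The remaining family genes were mostly low. Of 11 further genes looked up, 5 passed the filter on low counts and 0 of these were called on all 6 libraries by edgeR's test, with 0 at an unadjusted p-value under 0.05. The other 6 (CA1, CA4, CA5A, CA6, CA7 and CA10) held between 0 and 14 counts in any library. A count of 0 allows up to 3 counts, or between 0.0242 and 0.0316 CPM, if each count is an independent read. Most low counts were even, and where mates were counted separately this limit is higher. CA14, another membrane enzyme, measured 1.72, 1.03 and 0.872 CPM with METTL3 and 1.31, 1.02 and 0.787 CPM with the vector. PTPRG, a receptor phosphatase with an extracellular carbonic anhydrase-like domain, measured 29.7, 45.5 and 39.5 CPM with METTL3 and 23.99, 59.7 and 57.4 CPM with the vector. Its log2 fold change was -0.46 with replicates 2 and 3 of each group (adjusted p = 0.000349 from edgeR's test), but the difference within replicate 1 was 0.31, and on all 6 libraries PTPRG did not pass (adjusted p = 0.792 from edgeR's test). PTPRZ1, its paralog, measured 0.824, 0.750 and 0.753 CPM with METTL3 and 0.696, 0.681 and 0.570 CPM with the vector. It lay above the vector without overlap, as did 8.47% of all genes (log2 fold change 0.26, adjusted p = 0.748 from edgeR's test).

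Bicarbonate and proton transporters, which work beside carbonic anhydrases in pH control, gave no call on all 6 libraries in edgeR's test. Of 37 genes on this list 33 were tested, 16 higher and 17 lower. Of these 33, 3 had an unadjusted p-value under 0.05 in edgeR's test, beside 8.3% of all genes. The median log2 fold change of the list was -0.01, beside -0.02 over all genes tested. SLC4A2, the anion exchanger AE2, measured 226, 222 and 211 CPM with METTL3 and 167, 237 and 213 CPM with the vector. SLC4A7, a sodium bicarbonate cotransporter, measured 36.9, 55.9 and 54.5 CPM with METTL3 and 40.4, 60.4 and 60.9 CPM with the vector, lowest in replicate 1 of both groups. The groups overlapped for both of these. SLC16A1, the lactate transporter MCT1, measured 115, 136 and 135 CPM with METTL3 and 151, 159 and 163 CPM with the vector. Its groups did not overlap, as for 8.93% of all genes in that direction, with a log2 fold change of -0.30 (adjusted p = 0.565 from edgeR's test). The other lactate transporter, SLC16A3, and their chaperone BSG had log2 fold changes of 0.22 and -0.04. With replicates 2 and 3 of each group 9 of 34 tested genes on the list were called, all lower, which is 26.5% beside 8.59% of all genes called as lower. SLC16A1 was among them, at -0.25 (adjusted p = 0.00368 from edgeR's test). The sodium-coupled bicarbonate transporters SLC4A8, at -1.09, and SLC4A4, at -0.46, were also among them and were named after their values were seen. Within replicate 1, however, the other called genes were higher with METTL3. The log2 differences there were 0.45 for SLC4A3, 0.48 for SLC9A7, 0.04 for SLC9A9, 1.20 for SLC26A9, 0.33 for SLC26A11 and 0.23 for AQP1. SLC16A1, SLC4A4 and SLC4A8 were lower there, at -0.39, -0.17 and -0.07, from 1 library per group with no test.

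The genes whose levels followed those of CA2 most closely over the 6 libraries, by the root mean square difference of mean-centered log2 CPM among 14678 genes with a mean of at least 1 CPM, were CABYR (0.0464), CCDC88A (0.0529) and MTERF3 (0.0539). CCDC88A, which encodes the actin-binding protein girdin, measured 76.7, 123 and 121 CPM with METTL3 and 108, 145 and 149 CPM with the vector. As for CA2, replicate 1 was lowest in each group. The likeness is a ranking over 6 libraries and carries no test.

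The letters GGACT, a common form of the motif at which METTL3 places m6A, were counted in the canonical transcript of each member (GENCODE 44), on the transcript strand. CA12 and CA5B held 5 each, CA8 and CA13 held 3 each, and CA2, CA9 and CA11 held 2 each. Per kilobase this was from 0.523 for CA8 to 1.29 for CA9, beside a median of 0.925 and quartiles of 0.524 and 1.4 over 20046 protein-coding genes. CA12, at 0.82, and CA2, at 1.28 per kilobase, lay on either side of that median. The 3 windows of CA12 that lie in its 3′ UTR (exon 11, reverse strand) are shown with the motif in capitals, since CA12 was the member with the smallest adjusted p. They lie at chr15:63324368-63324392, chr15:63324352-63324376 and chr15:63322682-63322706 (GRCh38).
CA12 site 3: tgaacataaaGGACTccagagcagt
CA12 site 4: cagagcagtgGGACTgtctgtcaaa
CA12 site 5: ctcactccttGGACTtgctcccacc
The windows of sites 3 and 4 overlap, and the other 2 sites of CA12 are coding. Both sites of CA9 are coding, in exon 7. Whether any of these sites is methylated was not measured.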

How the data were processed

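The deposited table holds raw counts per gene, which the authors made with HISAT2 (build hg38) and featureCounts of Subread, without normalization. Tool versions, the annotation release and the strand setting are not given in the sources used here. The paper's methods and the labels differ in the kit and the read layout. Between 67.6% and 70.5% of counts from 1 to 20 were even, as arises when mates are counted separately, and counts divided by 2 were therefore an alternative. Names, lengths and overlaps came from GENCODE release 44, which matched 60507 of 60649 rows by identifier without version, and promoter sequences from RefSeq (GRCh38.p14).

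Genes passing edgeR's filterByExpr (22038) were scaled by TMM and tested in R 4.3.3 with glmQLFit (robust) and glmQLFTest of edgeR 4.0.16, with Benjamini-Hochberg adjustment over all of them and a threshold of 0.05. Standard errors were derived from each log2 fold change and its F statistic. DESeq2 1.42.0 was an alternative. On simulated counts with 200 genes changed by a fold of 2, edgeR recovered 39.5% of them for the group comparison among 21573 genes tested, with 5.95% of its calls false. For replicate 1 against replicates 2 and 3 edgeR recovered 71% among 21648 genes, with 8.39% of its calls false. In the deposited counts the group comparison on all 6 libraries called 0 of 22038 genes. METTL3 itself, at a log2 fold change of 1.16, did not pass there (adjusted p = 0.072 from edgeR's test). How far the recovered percentages apply to the deposited counts, where replicate 1 stood apart in both groups, was not tested. Nothing in the labels says that replicates are separate cultures, so p-values measure the spread between these libraries, which may be technical. Limits from counts cover counting error only.

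Replicate numbers are shared between the groups. Deviations of same-numbered libraries from their group means correlated at 0.357, 0.252 and 0.272. Each is over 0.1, so differences within numbered pairs and a fit with the replicate number as a block are also given. The main fit holds the group only, with no block. The labels state no shared batch, so the pairing rests on these values. METTL3-overexpressing replicate 2 correlated at 0.382 with vector control replicate 3, and METTL3-overexpressing replicate 3 at 0.135 with vector control replicate 2. The values thus do not tell the pairing of replicates 2 and 3. The genes named are the 7 members, METTL3, other family genes, transporters, 5 hypoxia targets, overlapping genes and the 3 genes most like CA2. A few cell type markers are named beside their summed levels, chosen after their values were seen, and some genes of these lists are not reported here. The members, the lists and the comparison of replicate 1 with replicates 2 and 3 were chosen with earlier results of these data known. The same holds for the fit of replicates 2 and 3 of each group alone. Alternatives were DESeq2, its size factors, upper-quartile factors, other filters, counts divided by 2, the replicate block, each library left out, and replicates 2 and 3 only. DESeq2 on replicates 2 and 3 was added after seeing the data.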

Additional observations from a re-analysis of the deposited data

How the results depend on the processing

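Of 7 members, 0 were called on all 6 libraries with DESeq2, its size factors, upper-quartile factors, at least 10 counts in every library, counts divided by 2 or the replicate number as a block. The block changed no call, with 0 members and 0 genes called. Keeping every gene with a count, edgeR called 560 genes, 1 member (CA9), 1 acid-base transport gene and 4 hypoxia targets. DESeq2 called 280 genes and 1 hypoxia target. Leaving out 1 library gave from 0 to 367 genes, from 0 to 1 members (CA12, without vector control replicate 1) and from 0 to 2 hypoxia targets. Replicates 2 and 3 of each group gave 3362 genes with edgeR and 3233 with DESeq2, 2 members with both, 9 acid-base transport genes with both, and 6 hypoxia targets with edgeR and 7 with DESeq2. The log2 fold change of CA11 changed sign with at least 10 counts (0.000449), with counts divided by 2 (0.000342) and on leaving out single libraries, with values from -0.40 to 0.17. For replicate 1 against replicates 2 and 3, where 1997 genes were called, DESeq2 called 3571, the fit without a filter 4220, and leaving out 1 library from 233 to 776, with from 0 to 2 members. DESeq2 size factors left 1 member there, CA2. With the longest transcript as the length the mean FPKM in vector control libraries was 20.4 for CA2, 0.430 for CA5B, 5.85 for CA8 and 6.17 for CA13. The cause of these differences was not tested, other than that some fits hold fewer libraries or more genes. The lowest count of any member was 40, for CA9, and with counts divided by 2 its log2 fold change was 1.46.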
